A study of Mus musculus with 12 samples.

Results

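The genes described here encode the initiation and elongation factors of cytoplasmic translation, taken as every contig of the count matrix whose gene symbol in the deposited tables begins with Eif or Eef. A contig is 1 annotated transcript model. The rule found 108 contigs of 53 genes among 12114 contigs, and all 108 passed the filter on low counts, as did 11831 contigs in all. They held 97971 reads. Of the contigs, 96 were annotated as protein coding, 7 as retained introns, 3 as targets of nonsense-mediated decay and 2 as processed transcripts. A single contig stood for each of 36 genes, and the other 17 genes had up to 8. A few prefixed symbols name regulators rather than factors, such as the eIF2 kinase Eif2ak1 and the eIF4E-binding repressors. In contig names, T stands for ENSMUST00000 and the 6 digits that follow are the rest of the Ensembl transcript number.

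Native poly(A) RNA from mouse spermatids was read by Nanopore direct RNA sequencing, in which each read is 1 RNA molecule with no amplification. Round spermatids (RS), the haploid cells that have just left meiosis, and elongated spermatids (ES), in which the nucleus condenses and transcription shuts down, were sorted by flow cytometry after DNA staining with Hoechst. Adult males on the C57BL/6 background were wild type for Tent5c (wt/wt) or homozygous for Tent5c dcat (dcat/dcat), a germline allele in every cell of the animal whose protein, a non-canonical cytoplasmic poly(A) polymerase, is catalytically dead. The 4 groups were wt/wt RS, dcat/dcat RS, wt/wt ES and dcat/dcat ES. Each held 3 libraries, and each library was made from RNA pooled from 3 mice, so the spread between single animals is not seen. The study states that both stages came from the same mice, but the labels do not say whether equal replicate numbers mark the same mice.

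Translation starts when a small ribosomal subunit, carrying initiator tRNA on eIF2 and held by eIF1, eIF1A, eIF3 and eIF5, is brought to the capped end of an mRNA by eIF4F, the complex of the cap-binding protein eIF4E, the scaffold eIF4G and the RNA helicase eIF4A. eIF1 and eIF1A govern how the subunit scans for a start codon, eIF4B and eIF4H assist the helicase, and 4E-binding proteins keep eIF4E from eIF4G. Elongating spermatids are a classical case of translational control, because mRNAs made in RS are stored and translated only after transcription has stopped.

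Libraries held 337287 to 1359427 counts, so that 3 reads, the fewest taken as a measurable level, corresponded to 1.77 to 10.6 counts per 1000000 (CPM, scaled by edgeR's TMM factors, which assume that most contigs do not change). A library's top 10 contigs held 6.91% of its counts in wt/wt RS on average, and 20.6% in wt/wt ES. Late-spermatid markers were at 21048 to 43768 CPM in wt/wt RS and 216896 to 286141 CPM in wt/wt ES and early acrosome markers at 1980 to 2125 and 1123 to 1272 CPM. Markers of somatic cells were also higher in ES, although interstitial cells were washed off and the cells were sorted by DNA content and scatter. The 7 contigs of 6 Leydig cell markers summed to 15.8 to 45.5 CPM in wt/wt RS and 429 to 883 CPM in wt/wt ES, and to 15.0 to 33.8 CPM and 255 to 1015 CPM in dcat/dcat, although Star, Hsd3b1, Hsd3b6 and Lhcgr had no contig. Without Insl3 and Ptgds, which the study examined in ES, the Leydig list summed to 4.15 to 13.01 CPM in wt/wt RS and 110 to 311 CPM in wt/wt ES. The 9 contigs of 8 Sertoli cell markers summed to 39.3 to 53.2 CPM in wt/wt RS and 240 to 413 CPM in wt/wt ES, with no contig for Sox9 or Wt1. Both sums were higher in ES than in RS alongside every rise described below, and their part in those differences was not tested. In such bulk samples, fewer cells of a type and less RNA per cell cannot be told apart. Tent5c itself was read at 239 to 350 CPM in wt/wt RS, 274 to 403 CPM in dcat/dcat RS, 807 to 889 CPM in wt/wt ES and 882 to 1112 CPM in dcat/dcat ES. The allele alters the protein, so these levels do not check the genotype.

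The first comparison asked which factor mRNAs rise or fall relative to most other contigs, under TMM scaling, as RS become ES. In wt/wt, 39 contigs of 14 genes rose, 4 contigs of 4 genes fell and 65 did not pass the test, where a call is a Benjamini-Hochberg adjusted p (q) at or under 0.05 in edgeR's quasi-likelihood test over all 11831 contigs. Over all contigs tested, 23.8% rose and 16.5% fell. The median log2 change of the factor contigs was 0.25, and that of all contigs was -0.24. In dcat/dcat, 42 contigs of 15 genes rose and 11 fell, beside 24% and 16.9% of all contigs, with medians of 0.35 and -0.18. The 43 contigs called in wt/wt were called in the same direction in dcat/dcat, 39 higher and 4 lower, and 33.1% of all contigs were called in both genotypes. By separation alone, ES lay above RS for 41 factor contigs and below for 12 in wt/wt (25.9% and 27.3% of all contigs), and above for 42 and below for 15 in dcat/dcat (25.7% and 25.2%). How a contig passed the filter on low counts bears on these counts. Of the 108 contigs, 68 had 10 reads in 2 libraries of a group at both stages, 21 only in ES and 19 only in RS. A contig that passed only through the stage where it is high had to differ, and all 21 that passed through ES alone were called higher in both genotypes, as were 88.7% of all such contigs in wt/wt and 92.4% in dcat/dcat. Among the 68 that passed at both stages, 18 rose and 4 fell in wt/wt (32.3% and 20.2% of all such contigs) and 21 rose and 7 fell in dcat/dcat (32.2% and 20.6%), so the share that rose was not above the background there. Their medians were 0.17 in wt/wt and 0.28 in dcat/dcat, beside 0.12 and 0.17 for all such contigs. Because many contigs of 1 gene share most of their sequence, the calls are not independent of each other. With reads summed by gene, 17 of 53 genes rose and 3 fell in wt/wt (25.6% and 23.4% of all genes), and 17 rose and 8 fell in dcat/dcat (26% and 23%). That fit estimated TMM factors anew on the sums, so values also shifted for genes with 1 contig, whose reads did not change.

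How many contigs were called in each direction depended on the scaling. With libraries scaled by total counts alone, the median of all contigs moved by -0.71 in wt/wt, and the factor calls became 29 higher and 34 lower in wt/wt and 28 higher and 34 lower in dcat/dcat. The medians were then -0.96 and -0.85 for all contigs and -0.47 and -0.31 for the factor contigs (wt/wt, then dcat/dcat). Shares of all contigs called are not given for this scaling, so no count under it has a background. Under both scalings and in both genotypes, 25 contigs of 10 genes rose (Eef1d, Eef1g, Eif1, Eif1ax, Eif4a2, Eif4e, Eif4ebp1, Eif4g1, Eif4h and Eif5) and 4 contigs fell (Eif2s2, Eif3d, Eif3m and Eif4a3). Of the 25, 11 contigs had passed the filter at both stages, from 7 of the genes, with Eif4ebp1, Eif4g1 and Eif5 left out, as had all 4 that fell. With reads summed by gene, total-count scaling left 9 genes higher and 30 lower in wt/wt and 10 higher and 29 lower in dcat/dcat. The medians there were -0.79 and -0.77 for the factor genes, beside -1.08 and -0.98 for all genes. The genes higher in both were Eef1d, Eef1g, Eif1, Eif1ax, Eif4a2, Eif4e, Eif4ebp1, Eif4g1 and Eif4h. By role in wt/wt, total-count scaling gave 15 higher and 6 lower of the 37 eIF4F contigs, 7 and 4 of the 13 elongation factor contigs, 4 and 3 of the 9 eIF1 and eIF1A contigs, 0 and 5 of the 10 eIF2 and eIF2B contigs and 0 and 10 of the 16 eIF3 contigs. Of the higher calls with TMM scaling, 10 in wt/wt and 14 in dcat/dcat were not called with total-count scaling. Among called contigs only Eif5 T166123 changed sign, in each genotype. All 4 lower calls in wt/wt and all 11 in dcat/dcat were called lower with total-count scaling too. The calls that were lost hold only relative to the bulk of contigs. Of the contigs not called with TMM scaling, 30 in wt/wt and 23 in dcat/dcat were called lower with total-count scaling, and none higher. Among them in both genotypes were contigs of Eef1b2, Eefsec, Eif1ad, Eif2b5, Eif4g2, Eif5a and Eif6. With only contigs that had 10 reads in every library, 41 factor contigs remained for testing and 12 rose and 13 fell in wt/wt. Their median was 0.00069, beside -0.070 for all contigs kept in that way, and the share of those called is not given. The count in dcat/dcat fell from 53 to 32 without dcat/dcat ES replicate 3.

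**Figure D1:**
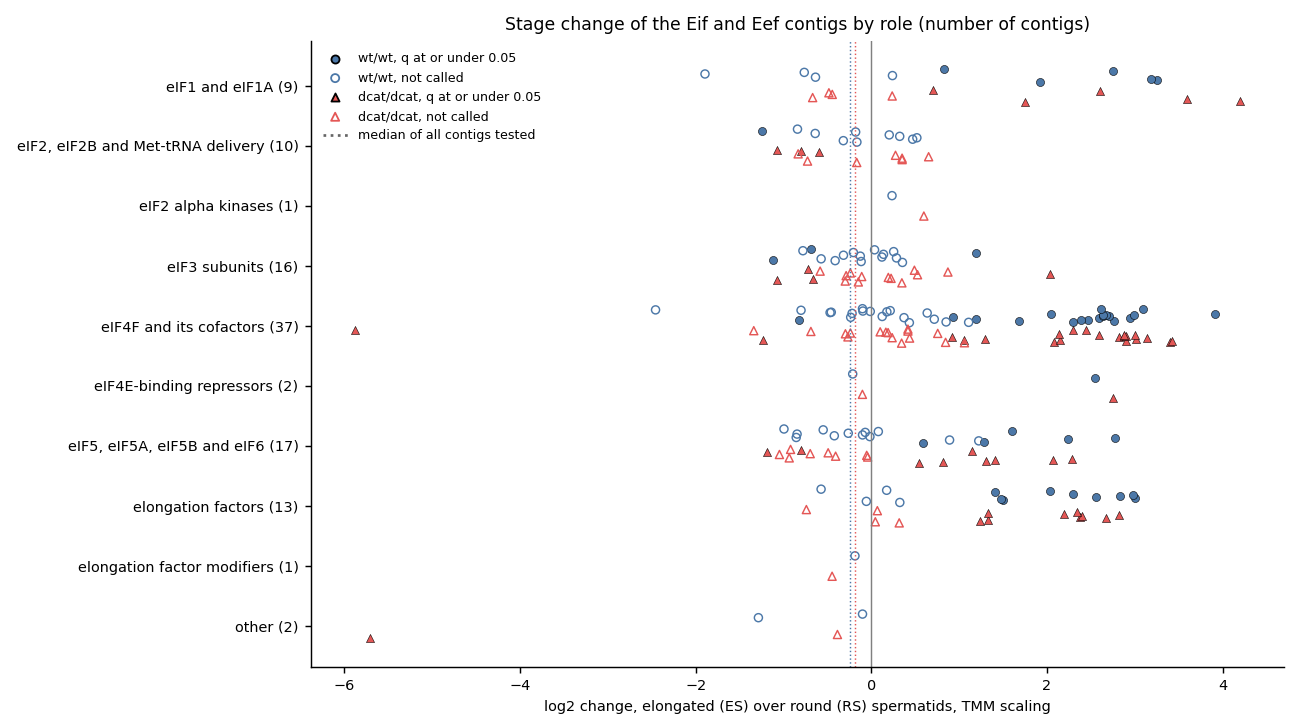
Log2 change from RS to ES of each of the 108 contigs, by role, in wt/wt (blue circles) and dcat/dcat (red triangles), with filled symbols for q at or under 0.05 and dotted lines at the medians of all contigs tested. The eIF4F, eIF1/eIF1A, eIF5, eIF4E-binding and elongation factor rows reach furthest to the right. The eIF2 row runs from -1.24 to 0.52 in wt/wt and from -1.08 to 0.65 in dcat/dcat. The eIF3 row runs from -1.12 to 1.19 and from -1.07 to 2.04. The 21 contigs that passed the filter through ES alone are all among the filled points right of 0. The 2 dcat/dcat points beyond -5 are fits to groups with 0 reads in ES, and their position is no measured fold.

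Of the 9 contigs of eIF1 and eIF1A, which bind the small subunit and hold it open for scanning, 5 rose and none fell in either genotype. The 5 were 3 of Eif1, 2 of which passed the filter through ES alone, and those of Eif1ax and Eif1b, while Eif1a and Eif1ad had no call. Of the 4 contigs that passed the filter at both stages 3 rose in each genotype. Of all such contigs 32.3% rose in wt/wt and 32.2% in dcat/dcat. Eif1ad2 and Eif1ad6 were not listed in this role, and Eif1ad2 was called lower in dcat/dcat. Eif1 T049385 was at 821, 999 and 1125 CPM in wt/wt RS, at 4186, 3647 and 3295 CPM in wt/wt ES, at 916, 1062 and 1132 CPM in dcat/dcat RS and at 4222, 3096 and 3117 CPM in dcat/dcat ES. All 6 ES libraries lay far above all 6 RS libraries. Its log2 change was 1.92 ± 0.17 (SE, 3 libraries a group) in wt/wt, q = 1.9e-06, and 1.75 ± 0.17 in dcat/dcat, q = 4.5e-06. The X-linked Eif1ax, which encodes eIF1A, was at 41.5, 40.5 and 58.0 CPM in wt/wt RS and 372, 314 and 265 CPM in wt/wt ES. It was at 36.3, 40.6 and 64.3 CPM in dcat/dcat RS and 304, 275 and 289 CPM in dcat/dcat ES, again with no overlap between stages. The log2 changes of Eif1ax were 2.75 ± 0.24 (q = 1.9e-06) and 2.60 ± 0.24 (q = 3.5e-06). Eif1a, the autosomal eIF1A gene, had 3 contigs that did not pass the test. In wt/wt 2 of them had log2 values of -0.64 and 0.24, and T238168 had 33 reads in RS and 3 in ES, a ratio of 3.78 (95% exact interval for counting error only, 1.18 to 19.2). Eif1b, a close relative of Eif1, rose by 0.83 ± 0.19 in wt/wt and 0.70 ± 0.19 in dcat/dcat (q = 0.0031 and 0.0087), and with total-count scaling its values were 0.11 and 0.02, not called.

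**Figure D2:**
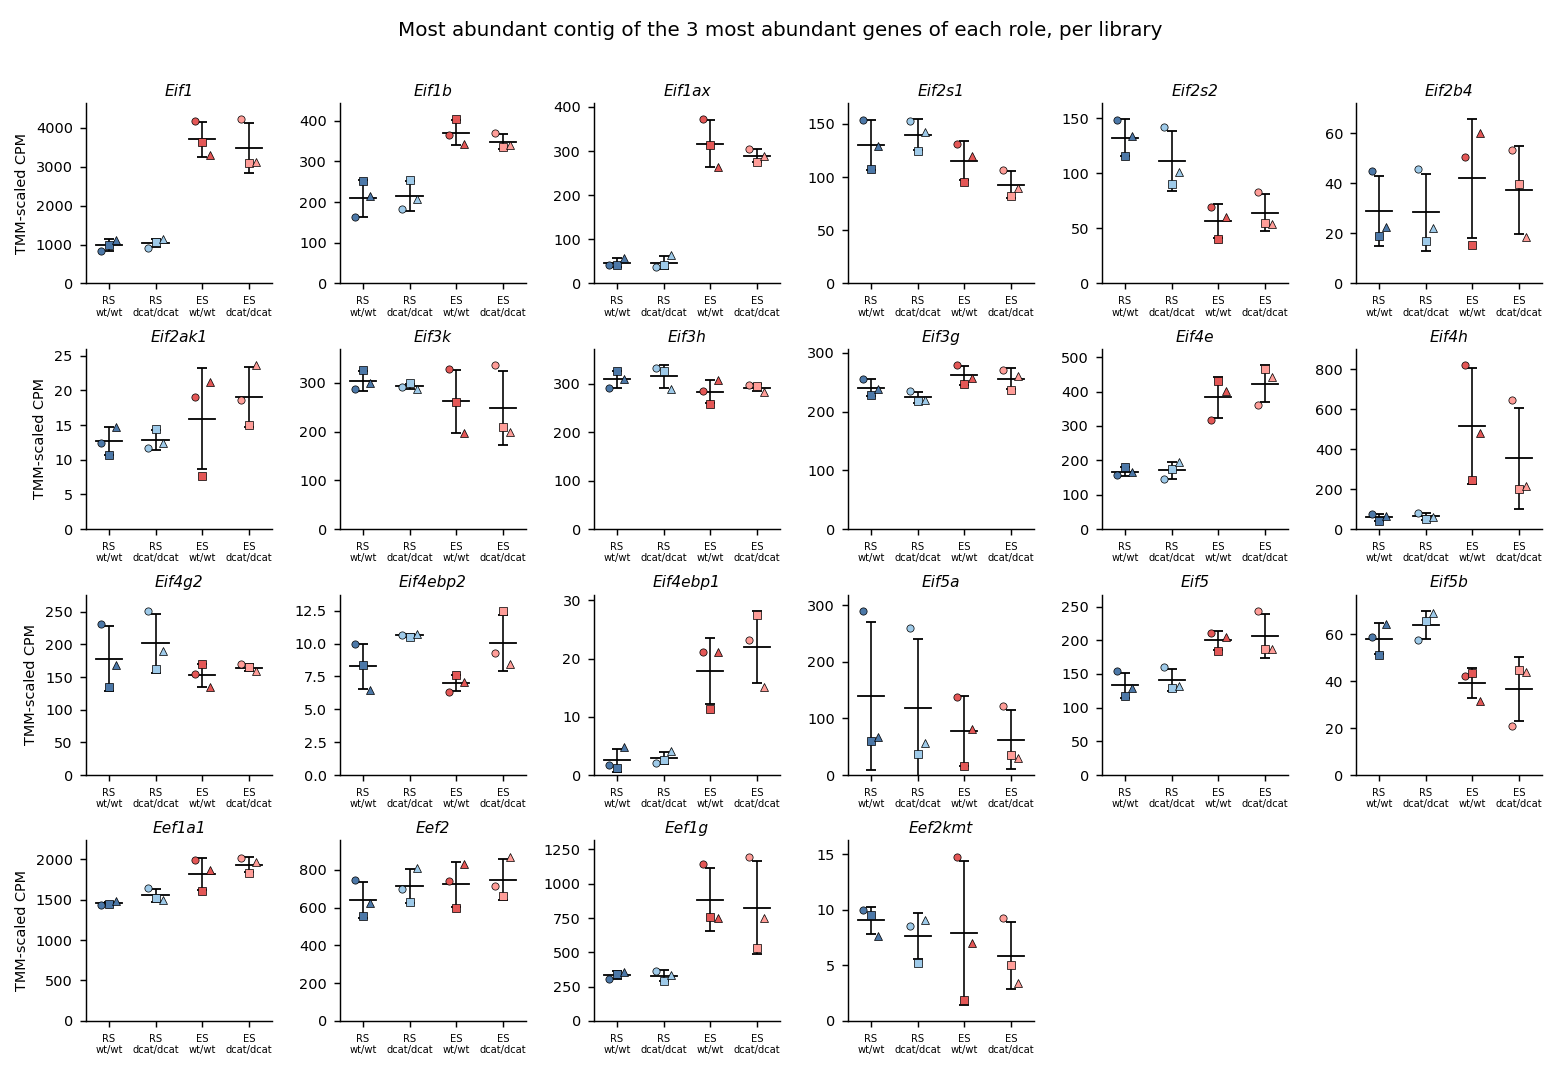
TMM-scaled CPM per library for the most abundant contig of up to 3 genes of each role; symbol shape gives replicate 1 (circle), 2 (square) or 3 (triangle), the line is the mean and the bar the SD of 3 libraries. The ES values of Eif1, Eif1ax, Eif4e, Eif4h, Eif4ebp1 and Eef1g sit above every RS value, those of Eif2s2 sit below, and Eif3h, Eif3k and Eef2 overlap.

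eIF2, the carrier of initiator tRNA, and eIF2B, which reloads it with GTP, had no contig called higher. Of their 10 contigs, 1 fell in wt/wt and 3 in dcat/dcat, with medians of -0.17 and -0.38. Of the 6 that passed the filter at both stages none rose, and 1 and 2 fell (16.7% and 33.3%). Of all such contigs 32.3% and 32.2% rose and 20.2% and 20.6% fell. Eif2s2, the beta subunit, was at 149, 116 and 134 CPM in wt/wt RS and 69.7, 39.9 and 60.0 CPM in wt/wt ES. It was at 142, 90.5 and 101 CPM in dcat/dcat RS and 83.5, 54.9 and 54.0 CPM in dcat/dcat ES, with every ES library below every RS library of its genotype. The fall of Eif2s2 was -1.24 ± 0.27 in wt/wt (q = 0.0021) and -0.80 ± 0.27 in dcat/dcat (q = 0.026, lost without RS replicate 1, ES replicate 2 or ES replicate 3 of that genotype). Eif2s1, the alpha subunit on which stress kinases act, had log2 values of -0.18 ± 0.21 (q = 0.51) and -0.59 ± 0.21 (q = 0.035, lost in 6 of 12 fits that left 1 library out), and Eif2s3y, the Y-linked gamma subunit, of -0.84 (q = 0.073) and -1.08 (q = 0.027), on a contig that passed the filter through RS alone. Of eIF2B, the genes Eif2b1, Eif2b2, Eif2b4 and Eif2b5 had 7 contigs, none of them called in either genotype, and Eif2b3 had none. Of the eIF2 kinases only Eif2ak1 had a contig, at 7.61 to 23.6 CPM over all libraries and with no call.

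eIF3, the large assembly that bridges the small subunit and eIF4F, held few calls. All 14 listed subunit genes were measured, on 16 contigs. In wt/wt 1 contig rose and 2 fell, and in dcat/dcat 1 rose and 3 fell, with medians of -0.12 and -0.13. Of the 15 that passed the filter at both stages none rose, where 32.3% and 32.2% of all such contigs did. The shares that fell, 13.3% and 20%, were not above the 20.2% and 20.6% of all such contigs. Eif3d, a subunit that can itself bind caps, was at 167, 143 and 147 CPM in wt/wt RS and 86.6, 64.7 and 56.5 CPM in wt/wt ES. It was at 156, 146 and 138 CPM in dcat/dcat RS and 62.6, 69.9 and 76.0 CPM in dcat/dcat ES. The stages did not overlap in either genotype, and the log2 changes of Eif3d were -1.12 ± 0.20 (q = 0.00052) and -1.07 ± 0.20 (q = 0.00072). Eif3m fell by 0.68 ± 0.22 in wt/wt on the log2 scale (q = 0.024, lost without wt/wt RS replicate 2 or wt/wt ES replicate 1 or 3) and by 0.72 ± 0.22 in dcat/dcat (q = 0.018). The only subunit called higher was Eif3j2, which passed the filter through ES alone and is 1 of a pair of near-identical genes whose reads could be exchanged with those of Eif3j1. Eif3j2 changed by 1.19 ± 0.44 in wt/wt (q = 0.042) and by 2.04 ± 0.47 in dcat/dcat (q = 0.003), while Eif3j1 had values of 0.14 and 0.52, not called. The abundant Eif3h was at 259 to 331 CPM over the 12 libraries, with log2 values of -0.13 ± 0.15 and -0.11 ± 0.15, not called, and of -0.84 and -0.78, both called lower, with total-count scaling.

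eIF4F and its cofactors made up the largest role, with 37 contigs, of which 18 from 5 genes were called higher and 1 lower in wt/wt and 19 higher and 2 lower in dcat/dcat. Of the higher ones 12 had passed the filter through ES alone, and of the 22 contigs that passed at both stages 6 rose and 1 fell in wt/wt and 7 rose and 1 fell in dcat/dcat. The shares that rose, 27.3% and 31.8%, were not above the 32.3% and 32.2% of all contigs that passed at both stages. The share that fell was 4.55% in each genotype, beside 20.2% and 20.6%. The scaffold Eif4g1 had 7 contigs, each with at most 7 reads in any RS library, whose 3' ends lie within a few bases of each other, so that the split of reads between them is uncertain. All 7 passed the filter through ES alone, so their calls as higher (log2 values of 2.04 to 3.91 in wt/wt and 2.14 to 3.00 in dcat/dcat) were partly fixed by it. Summed over its contigs, Eif4g1 was at 20.8, 21.4 and 21.3 CPM in wt/wt RS and 123, 207 and 109 CPM in wt/wt ES. It was at 19.2, 14.4 and 26.4 CPM in dcat/dcat RS and 88.1, 192 and 157 CPM in dcat/dcat ES. No RS library came near an ES library, and the summed Eif4g1 changed by 2.96 ± 0.30 in wt/wt (q = 5.3e-08) and 2.96 ± 0.31 in dcat/dcat (q = 9.0e-08), or by 2.09 and 2.15, both called, with total-count scaling. The relatives of Eif4g1 were not called in wt/wt. Eif4g2, which lacks the eIF4E-binding region and serves cap-independent initiation, had log2 values of -0.22 and 0.63 for its 2 contigs in wt/wt, neither called. Eif4g3 had 8 contigs, none called in wt/wt, and a summed log2 value of -0.10 ± 0.20.

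Among the helicase genes, Eif4a2 summed over its 5 contigs rose by 2.44 ± 0.22 in wt/wt and 2.66 ± 0.23 in dcat/dcat, or by 1.57 and 1.84 with total-count scaling. All 5 contigs were called higher in both genotypes, but 4 of them had passed the filter through ES alone. Its main contig, T023599, was at 19.1, 15.5 and 26.0 CPM in wt/wt RS and 146, 101 and 53.0 CPM in wt/wt ES. Eif4a1, the housekeeping paralog, had no called contig, but summed it was called higher, by 0.73 ± 0.20 (q = 0.0045) and 0.73 ± 0.19 (q = 0.0032). With total-count scaling the sums of Eif4a1 were -0.14 and -0.09, not called. Eif4a3, a helicase of the exon junction complex rather than of eIF4F, fell. It was at 107, 114 and 80.4 CPM in wt/wt RS, 67.6, 43.8 and 60.0 CPM in wt/wt ES, 115, 111 and 95.6 CPM in dcat/dcat RS and 37.1, 49.9 and 49.0 CPM in dcat/dcat ES. The stages did not overlap, with log2 changes of -0.82 ± 0.24 (q = 0.013, lost without wt/wt ES replicate 2) and -1.24 ± 0.24 (q = 0.00092). Eif4b, a helicase cofactor, had values of 0.72 ± 0.28 in wt/wt, short of the threshold at q = 0.055, and 1.06 ± 0.28 in dcat/dcat (q = 0.0079). In the fit of gene sums it was called in both, at 0.86 (q = 0.0067) and 1.22 (q = 0.00036). Eif4b has 1 contig, so that fit added no reads and differed by scaling factors estimated anew. With total-count scaling its contig was at -0.0081 and 0.40 (q = 0.25), called in neither.

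Eif4e, the cap-binding protein, was called higher on each of its 3 contigs, of which T200100 passed the filter through ES alone. The full-length T029803 was at 157, 181 and 165 CPM in wt/wt RS, 317, 432 and 403 CPM in wt/wt ES, 145, 174 and 195 CPM in dcat/dcat RS and 362, 464 and 442 CPM in dcat/dcat ES. Every ES value exceeded every RS value, and the log2 changes were 1.19 ± 0.18 (q = 0.00013) and 1.30 ± 0.18 (q = 6.7e-05). T200020 was at 10.8, 8.34 and 15.4 CPM in wt/wt RS and 80.3, 105 and 91.8 CPM in wt/wt ES, a log2 change of 2.94 ± 0.35 (q = 1.4e-05). It was at 6.41, 6.56 and 16.5 CPM in dcat/dcat RS and 104, 67.4 and 81.0 CPM in dcat/dcat ES, a change of 3.01 ± 0.36 (q = 1.9e-05). The third contig, T200100, had log2 values of 2.59 ± 0.49 and 3.13 ± 0.49. T200020 and T200100 therefore took a larger share of Eif4e reads in ES, 26.2% ± 0.586 (SD, n = 3) in wt/wt and 25.4% ± 3.36 in dcat/dcat, than in RS, 9.90% ± 3.10 and 8.36% ± 2.59. No RS library exceeded 13.4% and no ES library was under 22.5%, on 144 to 338 reads a library.

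The ends of the Eif4e contigs are shown because they are where these models part. Each line gives the last 30 bases in the sense of the mRNA, taken from the GENCODE vM21 transcript sequences, with coordinates on GRCm38. A polyadenylation hexamer (AATAAA or ATTAAA on the transcript strand) is in capitals where 1 is present. The full-length model ends at chr3:138559667-138559696, T200100 at chr3:138555645-138555674 and T200020 at chr3:138555370-138555399, all on the plus strand.
Eif4e T029803: aggattggaATTAAAtgcgttcactaccga
Eif4e T200100: attcgcctttgtcttgtacttctgtgttca
Eif4e T200020: gatgcagtcacacacatagggagggtatac
The full-length end lies 4022 and 4297 bases beyond the other 2 and is the only one of the 3 with a hexamer. Of all contigs with a sequence, 66.3% held 1 of the hexamers in their last 30 bases, and 65.7% of the 108 factor contigs did. T200100 skips 1 internal exon, and T200020 begins with a longer first exon and is annotated as incomplete at its 3' end. So the larger share in ES was a share of these models, and which of their features the reads carried cannot be told from counts. The tests of contig usage, the change of a contig relative to its gene, called T200020 higher in wt/wt (usage log2 1.01, q = 0.041), beside 1.2% of the 6722 contigs in that test. That call was lost in 8 of the 12 fits that left 1 library out, with q up to 0.30.

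**Figure D3:**
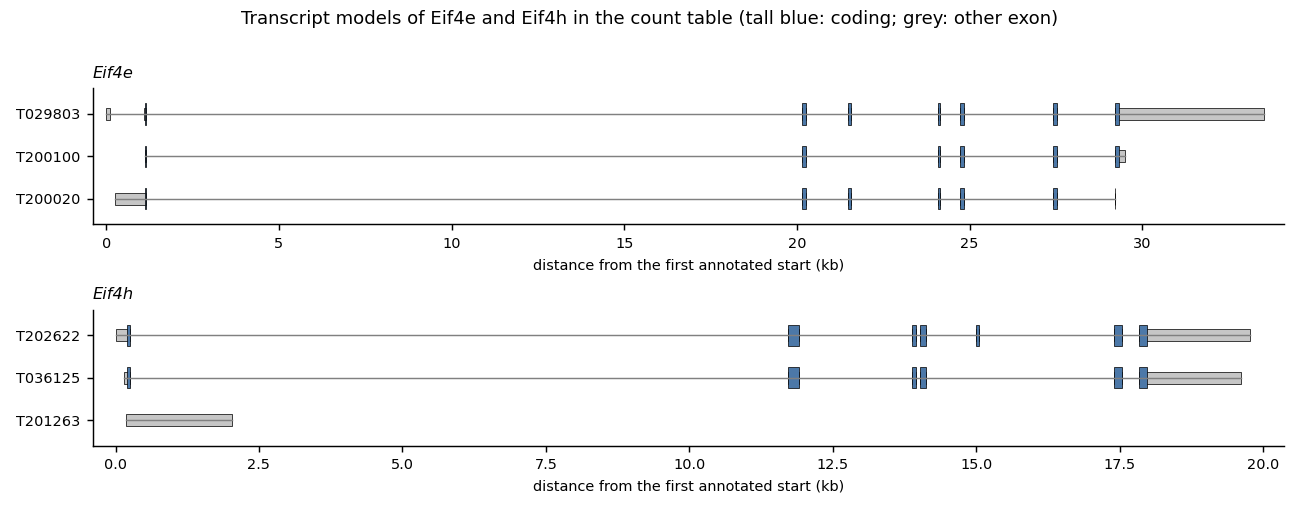
Exons of the Eif4e and Eif4h contigs by distance in kb from the first annotated start, with coding parts in blue and other exon parts in grey. The shorter Eif4e models stop at the start of the last exon, and the retained-intron model of Eif4h lies wholly at the start of the gene.

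Eif4h, a cofactor that stimulates eIF4A, rose on its spliced contigs, and a contig of unspliced sequence was not called. T202622, with 7 exons, was at 73.9, 40.5 and 63.9 CPM in wt/wt RS, 820, 243 and 480 CPM in wt/wt ES, 83.3, 48.5 and 61.8 CPM in dcat/dcat RS and 645, 202 and 214 CPM in dcat/dcat ES. T036125, with 6 exons, was at 29.1, 35.7 and 40.2 CPM in wt/wt RS, 188, 194 and 268 CPM in wt/wt ES, 31.0, 44.6 and 42.8 CPM in dcat/dcat RS and 167, 165 and 248 CPM in dcat/dcat ES. For both, all ES libraries were above all RS libraries, with a wide spread for T202622 in ES. T202622 changed by 3.10 ± 0.49 (q = 0.00017) and 2.44 ± 0.48 (q = 0.001), and T036125 by 2.61 ± 0.25 (q = 2.8e-06) and 2.30 ± 0.25 (q = 9.1e-06). The spliced models differ by exon 5 of T202622, chr5:134624441-134624500 on the minus strand, a coding exon of 60 bases or 20 codons. It is printed in capitals with 12 bases of the exons on either side, above the junction found in the model without it.
Eif4h with exon 5: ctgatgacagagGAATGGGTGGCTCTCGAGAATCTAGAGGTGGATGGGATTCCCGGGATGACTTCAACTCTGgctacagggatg
Eif4h without exon 5: ctgatgacagaggctacagggatg
The share of spliced reads on the model with exon 5 overlapped between stages, at 62.1% ± 9.35 in wt/wt RS, 67.0% ± 13.1 in wt/wt ES, 61.4% ± 10.6 in dcat/dcat RS and 60.3% ± 17.1 in dcat/dcat ES.

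The third Eif4h contig, T201263, is a single exon of 1849 bases that runs from the first exon into the first intron. It was at 21.6, 19.1 and 20.7 CPM in wt/wt RS, 12.7, 19.0 and 28.2 CPM in wt/wt ES, 16.0, 17 and 11.5 CPM in dcat/dcat RS and 20.9, 17.5 and 20.3 CPM in dcat/dcat ES. Its level in wt/wt ES overlapped that in wt/wt RS. As the spliced contigs rose, its share of Eif4h reads went from 18% ± 1.79 in wt/wt RS to 3.02% ± 1.56 in wt/wt ES, and from 12.6% ± 2.78 to 3.75% ± 1.09 in dcat/dcat, with no overlap between stages. The usage test called it in wt/wt (usage log2 -1.94, q = 0.0047) and lost the call only without wt/wt ES replicate 1 (q = 0.064). T201263 passed the filter through RS alone, with at most 12 reads in any ES library. Its lower share in ES was thus partly favoured by the filter. In dcat/dcat the test called 2 other contigs, Eif1 T152521 (1.69, q = 0.047) and Eif4g3 T139759 (-3.96, q = 0.038), beside 1.07% of all contigs tested, and neither was called in 6 of the 12 fits that left 1 library out. The former passed the filter through ES alone and the latter through RS alone, each the stage where it was high. Same-numbered dcat/dcat libraries deviated together, and with the replicate number as a block 7 contigs were called, among them Eif4h T201263 (-1.22, q = 0.0020) and Eif4e T200020 (0.98, q = 0.0018). The share of all contigs called in that fit is not given, so this count has no background. The 7 also include Eif1 T152521, Eif4g3 T139759 and Eif4e T200100, each of which passed the filter through 1 stage alone.

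**Figure D4:**
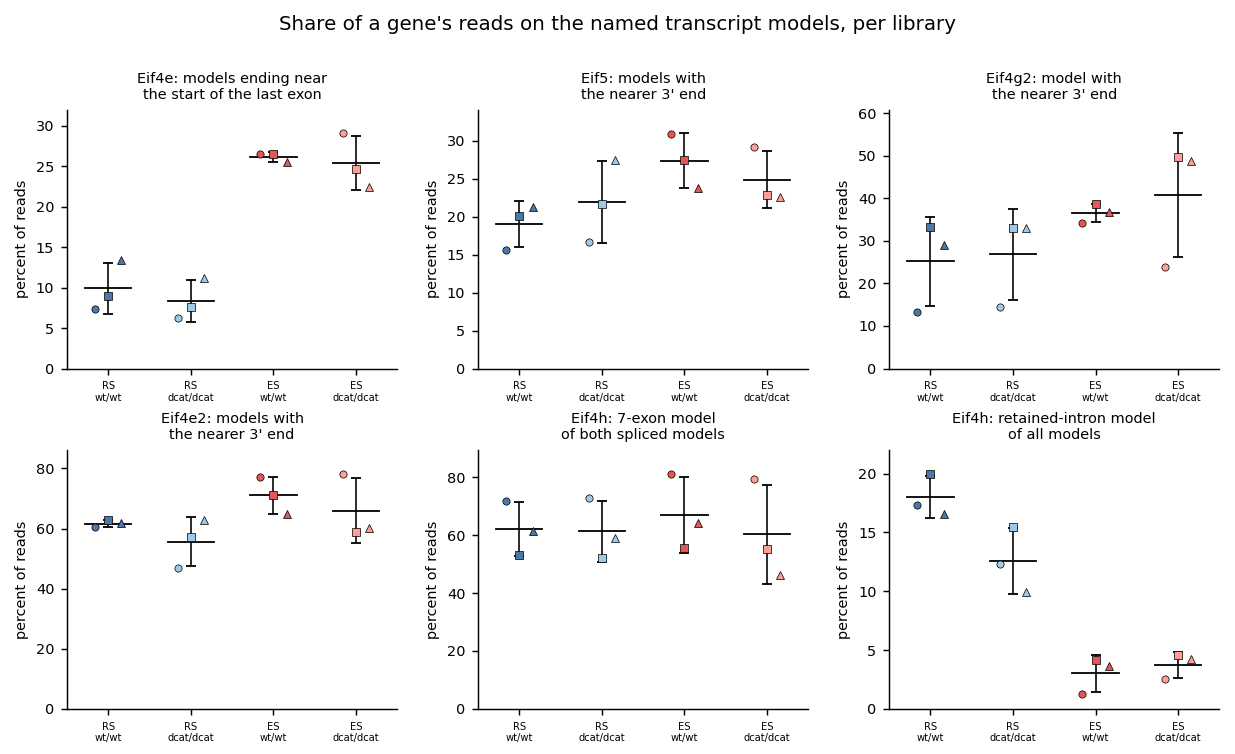
Percent of a gene's reads on the named models in each library, with replicate 1, 2 and 3 as circle, square and triangle, the line at the mean and the bar giving the SD of 3 libraries. The Eif4e and Eif4h retained-intron panels separate RS from ES in both genotypes, whereas Eif5, Eif4g2 and Eif4e2 separate by group only in wt/wt and the exon 5 share of Eif4h overlaps. The Eif5 panel leaves out reads of T221648 and pools T050993 with T221101, which passed the filter through ES alone.

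Of the repressors of eIF4E, Eif4ebp1 was called higher and Eif4ebp2 was not called. Eif4ebp1 had at most 8 reads in any RS library and passed the filter through ES alone. It was at 1.66, 1.19 and 4.73 CPM in wt/wt RS, 21.1, 11.4 and 21.2 CPM in wt/wt ES, 2.14, 2.62 and 4.12 CPM in dcat/dcat RS and 23.2, 27.5 and 15.2 CPM in dcat/dcat ES. The stages did not overlap, with log2 values of 2.55 ± 0.53 (q = 0.0016) and 2.75 ± 0.52 (q = 0.00078) from near the lowest measurable level. Eif4ebp2, at 6.34 to 12.5 CPM over all libraries, had values of -0.21 and -0.10. Eif4e2, a cap-binding relative that represses translation, rose on 1 of 4 contigs, T113233, by 0.93 ± 0.32 and 0.92 ± 0.32, or 0.22 and 0.26, not called, with total-count scaling. Summed over its contigs, Eif4e2 was called higher by 0.48 ± 0.16 (q = 0.017) and 0.53 ± 0.16 (q = 0.0086), but its direction rests on the scaling. With total-count scaling the sums of Eif4e2 were -0.38 (q = 0.029, called lower) and -0.28 (q = 0.099).

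Among the factors of start-site commitment, subunit joining and later steps, Eif5 rose and Eif5a as a whole was not called. Eif5, the GTPase activator of eIF2, had 4 of 6 contigs called higher in wt/wt and 6 in dcat/dcat, and summed it changed by 1.11 ± 0.18 (q = 2.8e-05) and 1.08 ± 0.18 (q = 3.5e-05), or 0.25 and 0.27, not called, with total-count scaling. Its main contig, T166123, was at 154, 117 and 129 CPM in wt/wt RS, 211, 185 and 205 CPM in wt/wt ES, 160, 130 and 133 CPM in dcat/dcat RS and 243, 187 and 187 CPM in dcat/dcat ES. The stages did not overlap and the changes were 0.58 ± 0.19 (q = 0.022) and 0.55 ± 0.19 (q = 0.03), calls that 3 of the 12 fits without 1 library lost in each genotype and which turned to -0.13 in both genotypes with total-count scaling. T050993, whose end lies 1829 bases nearer the gene start and which has the same coding length, rose by 1.28 ± 0.32 (q = 0.0048) and 0.82 ± 0.31 (q = 0.048). The 2 ends are at chr12:111546723-111546752 and chr12:111544894-111544923 on the plus strand, and only the nearer holds a hexamer.
Eif5 T166123: atgcatgaaaacatgttggtaatttcattg
Eif5 T050993: ataaaaAATAAAgatttgattttggtcatt
Models with the nearer end took 19.0% ± 3.00 of Eif5 reads in wt/wt RS and 27.4% ± 3.60 in wt/wt ES, without overlap, and 21.9% ± 5.43 and 24.8% ± 3.75 in dcat/dcat, with overlap. Between libraries of equal number this share was higher in ES in 3 of 3 for wt/wt and 2 of 3 for dcat/dcat. The only Eif5 contig called higher under both scalings and in both genotypes was T221648, a short model of the gene's 5' end with log2 values of 2.78 ± 0.51 and 2.28 ± 0.58. It had at most 7 reads in any RS library and passed the filter through ES alone.

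Eif5a, whose hypusine-bearing product helps ribosomes through difficult peptide bonds, had 8 contigs that end at nearly the same place, and summed it had log2 values of -0.23 ± 0.27 and -0.40 ± 0.27, neither called. With total-count scaling the sums were -1.10 (q = 0.0021) and -1.24 (q = 0.00093), both called lower, beside medians of -1.08 and -0.98 for all genes. With TMM scaling T070996 alone was called, a contig that passed the filter through RS alone and was lower in dcat/dcat by 1.18 ± 0.33 on the log2 scale (q = 0.011), and of the fits that left 1 library out the one without dcat/dcat ES replicate 3 lost the call. T108610 was set apart by replicate, at 290, 59.6 and 68.0 CPM in wt/wt RS and 260, 38.0 and 56.9 CPM in dcat/dcat RS. Replicate 1 was the highest of its group in all 4 groups. Its paralog Eif5a2 rose by 1.60 ± 0.44 (q = 0.0098) and 1.14 ± 0.43 (q = 0.044), or 0.89 and 0.48, not called, with total-count scaling. Eif5b, which joins the subunits, had values of -0.55 (q = 0.13) and -0.80 (q = 0.031, lost in 5 of 12 such fits), and Eif6, which keeps free large subunits apart from small ones, was at 33.2 to 45.3 CPM in wt/wt RS and 15.2 to 23.2 CPM in wt/wt ES, just short of the threshold (q = 0.06).

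Among the elongation factors, the calls were on subunits of the complex that exchanges the nucleotide of eEF1A. Of 13 contigs 9 rose and none fell in either genotype, but the 9 belonged to 2 genes, Eef1d and Eef1g, and 3 of them, all of Eef1d, passed the filter through ES alone. Of the 9 elongation factor contigs that passed at both stages 6 rose in each genotype, on the same 2 genes. Of all such contigs 32.3% rose in wt/wt and 32.2% in dcat/dcat. Eef1g T052248 was at 303, 338 and 357 CPM in wt/wt RS, 1147, 755 and 749 CPM in wt/wt ES, 366, 288 and 335 CPM in dcat/dcat RS and 1196, 532 and 750 CPM in dcat/dcat ES. No ES library reached down to RS, and the changes were 1.41 ± 0.25 (q = 0.00051) and 1.32 ± 0.25 (q = 0.00084). Eef1d, the exchange subunit, rose by 2.09 ± 0.32 and 1.91 ± 0.32 summed over its 7 contigs, or by 1.24 and 1.11 with total-count scaling. Each contig was called higher, with values of 1.48 to 3.01 in wt/wt and 1.23 to 2.81 in dcat/dcat. Eef1b2, the other exchange subunit, was at 63.4 to 93.2 CPM in all 12 libraries, with values of -0.06 ± 0.21 and 0.04 ± 0.21.

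Eef1a1, which delivers aminoacyl-tRNA, was at 1436, 1445 and 1481 CPM in wt/wt RS, 1988, 1604 and 1868 CPM in wt/wt ES, 1647, 1520 and 1496 CPM in dcat/dcat RS and 2015, 1828 and 1964 CPM in dcat/dcat ES. The stages did not overlap, yet the log2 values of 0.32 ± 0.13 fell just short of the threshold in both genotypes (q = 0.053 and 0.057). In the fit of gene sums the values were 0.46 and were called (q = 0.012 in each). Eef1a1 has 1 contig, so that fit held the same reads under scaling factors estimated anew. With total-count scaling the values became -0.39 and -0.36, both called lower. Eef2, the translocase, had overlapping stages and values of 0.17 ± 0.18 and 0.07 ± 0.18. Eefsec, for selenocysteine, and Eef2kmt, a methyltransferase of eEF2, were not called.

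Beside the Eif and Eef genes, a list of 44 other genes of the translation pathway was examined, of which 25 had 39 contigs. In wt/wt 15 of these contigs rose, from 7 genes, and 2 fell, with a median of 0.69. The dcat/dcat counts were 16 higher and 3 lower, with a median of 0.57. Of the 39, 25 had passed the filter at both stages. In each genotype 13 of those were called higher (7 genes for wt/wt, 8 for dcat/dcat). That is 52% of the 25, where 32.3% of all such contigs rose for wt/wt and 32.2% for dcat/dcat. The lower shares were 8% and 12%, where all such contigs gave 20.2% and 20.6%. Several contigs shared a gene, and the list was chosen with earlier results of these data known. Paip2, which displaces poly(A)-binding protein from mRNA, was called higher on all 6 of its contigs, at 1.89 to 2.83 in wt/wt, and its main contig went from a mean of 172 CPM in wt/wt RS to 636 CPM in wt/wt ES. Tpt1, the translationally controlled tumour protein, was called higher on 3 contigs, the main one from 592 to 2069 CPM (1.81, q = 3.2e-06). Of each of Paip2 and Tpt1, 1 minor contig passed the filter through ES alone. Denr, a partner in reinitiation and ribosome recycling, rose by 1.11, the ribosome rescue factor Hbs1l by 1.29 on its main contig, and the release factor Etf1 by 0.63. All changes of this list were taken with TMM scaling, and no total-count values are given for them. Pdcd4, an inhibitor of eIF4A, fell on its main contig by 0.59 in wt/wt and 1.30 in dcat/dcat on the log2 scale, and Gspt1, the release factor eRF3, fell on T080030 by 1.34 and 1.04.

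The second comparison asked whether loss of TENT5C activity altered these mRNAs at either stage, and the third whether it altered the change between stages. No factor contig passed in RS, in ES or in the stage-by-genotype interaction, where 0% of all contigs passed in each, by edgeR or by DESeq2. Before adjustment, p was under 0.05 for 1, 2 and 3 factor contigs by edgeR, beside 0.828%, 3.01% and 1.44% of all contigs, and for 0, 1 and 3 by DESeq2. With reads summed by gene no factor gene was called either, beside 0.0146% of all genes, higher in dcat/dcat ES. Among the 36 factor contigs with at least 500 reads in all, the log2 difference of dcat/dcat from wt/wt lay between -0.32 and 0.42 in RS and between -0.54 and 0.55 in ES, with median standard errors of 0.22 and 0.23. None of these differences passed the test, which does not show that the genotypes were alike. Eif1, for example, differed by 0.08 ± 0.17 in RS and -0.09 ± 0.17 in ES, and Eif4e T029803 by 0.04 ± 0.18 and 0.14 ± 0.18. Groups did not overlap for 7 factor contigs in RS, 4 above and 3 below, beside 2.55% and 2.76% of all contigs, and for 5 in ES, 3 above and 2 below, beside 4.01% and 3.65%.

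The contig with the smallest p in the interaction was Eif4a2 T168891. It was at 5.82, 7.15 and 5.91 CPM in wt/wt RS, 2.14, 5.24 and 1.65 CPM in dcat/dcat RS, 16.9, 22.8 and 21.2 CPM in wt/wt ES and 25.5, 27.5 and 38.8 CPM in dcat/dcat ES. The dcat/dcat libraries lay below wt/wt in RS and above it in ES, but in dcat/dcat RS they held 2, 4 and 2 reads, and replicates 1 and 3 were under the 3-read level of 3.21 and 2.47 CPM. The interaction of 1.72 ± 0.61 had an unadjusted p of 0.013 and did not pass after adjustment (edgeR). Eif5a T070996 was at 19.0, 30.4 and 21.2 CPM in wt/wt ES and 13.9, 15.0 and 11.8 CPM in dcat/dcat ES, a log2 difference of -0.83 ± 0.37 that did not pass after adjustment either. Eif1ad2, whose coding length of 432 bases equals that of Eif1ax, had 24 reads in dcat/dcat RS, 6 in wt/wt ES and none in dcat/dcat ES. It passed the filter through RS alone. Its stage difference in dcat/dcat was called, at least 1.25-fold lower in ES when 3 counts a library are allowed, and against wt/wt ES both groups were at or under that level, so no fold is given. Eif4g3 T139759 likewise passed through RS alone and had 26 reads in dcat/dcat RS and none in dcat/dcat ES, at least 1.47-fold lower, and 35 and 2 reads in wt/wt, a ratio of 6.01 (95% exact interval for counting error only, 1.54 to 51.6).

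**Figure D5:**
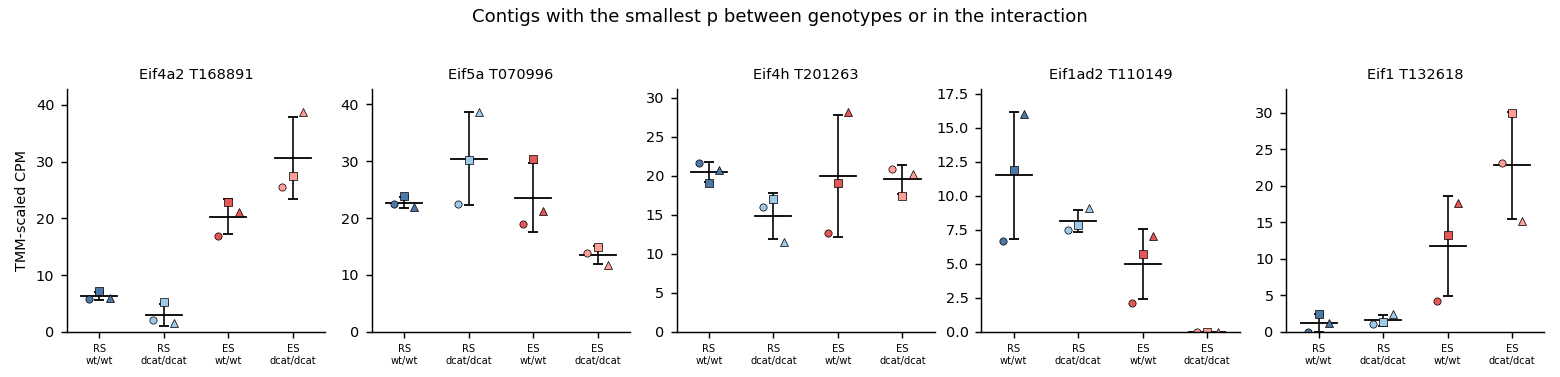
TMM-scaled CPM per library for the contigs with the smallest p between genotypes or in the interaction, with replicate 1, 2 and 3 as circle, square and triangle, the line at the mean and the bar giving the SD of 3 libraries. The genotypes of Eif4a2 T168891 separate in opposite directions at the 2 stages, and the dcat/dcat ES libraries of Eif1ad2 are at 0, but none of these contigs passed the genotype or interaction tests.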

How the data were processed

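Per the labels and the study's methods, the authors sequenced poly(A) RNA with the Nanopore direct RNA kit, mapped reads to mouse GRCm38 transcripts with minimap2 (version 2.20-r1061 in the submitters' notes) and counted reads per contig. The deposited values are raw counts. The methods name a filter of 10 reads in 2 replicates of a condition, which 283 of the 12114 contigs in the table do not meet. The deposited comparison tables hold the authors' fold changes and p-values, and only their gene symbols were used. Members and gene lists were chosen with earlier results of these data known.

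Contigs with at least 10 reads in 2 libraries of any group were fitted with edgeR 4.0.16 (R 4.3.3) in 1 quasi-likelihood model over the 12 libraries, with TMM scaling and Benjamini-Hochberg adjustment over 11831 contigs. CPM are counts per 1000000 after TMM scaling. Contig usage was tested with diffSpliceDGE. DESeq2 1.42.0 was an alternative. Genes were named by role and read number (the 3 genes with the most reads in each of 9 roles), by smallest q without overlap, by usage calls and by smallest genotype p, and others were named after their values were seen. Each library pools 3 mice. Same-numbered libraries deviated together between the stages in dcat/dcat (correlations of 0.41 to 0.64) and between genotypes in RS (0.56 to 0.82), so the replicate number was also fitted as a block there. The study isolated both stages from the same mice, so a block within each genotype was added after the data were seen, as was total-count scaling of the gene sums. The models were tested on simulated data.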

Additional observations from a re-analysis of the deposited data

Results flagged for a closer look

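The genotype difference of Eif4a2 T168891 was singled out because its libraries separate in opposite directions at the 2 stages. The log2 difference of dcat/dcat from wt/wt was -1.11 ± 0.48 (SE) in RS, where all 3 dcat/dcat libraries were below all 3 wt/wt libraries, and 0.61 ± 0.37 in ES, where all 3 were above. The dcat/dcat RS libraries held only 2, 4 and 2 reads, and replicates 1 and 3 were under the 3-read level, so the RS difference rests on counts that are hardly measurable. Separation of this kind is not itself a test of the difference between stages. The interaction term of 1.72 ± 0.61 had an unadjusted p of 0.013 and did not pass after adjustment (edgeR). The other 4 contigs of Eif4a2 did not separate in this way, and their interaction terms ran from -0.23 to 0.95.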

How the results depend on the processing

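The stage calls were 43 in wt/wt and 53 in dcat/dcat. Requiring 10 reads in every library left 41 factor contigs and gave 25 calls in wt/wt and 24 in dcat/dcat (12 higher and 13 lower, and 11 and 13), while summing reads by gene gave 20 and 25 genes called. DESeq2 gave 43 and 52 contigs, no filter 44 and 53, total-count scaling 63 and 62, and total-count scaling of the gene sums 39 and 39 genes. Except for the gene sums under TMM scaling, shares of all contigs called are not given for these alternatives. Leaving out 1 library gave 34 to 46 calls in wt/wt, the fewest without wt/wt ES replicate 2 or dcat/dcat ES replicate 2, and 32 to 54 in dcat/dcat, the fewest without dcat/dcat ES replicate 3. Which property of these libraries moves the counts was not tested. The genotype and interaction tests gave 0 calls under every alternative run.

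With the replicate number as a block, the stage calls were 57 in wt/wt (44 higher, 13 lower) and 62 in dcat/dcat (46 and 16) and included all 43 and 53. With a block within each genotype, added after the data were seen, they were 56 and 61, again including all 43 and 53, and the usage calls were 3 and 6. Usage calls were 4 in wt/wt and 7 in dcat/dcat with the block, 0 in both with 10 reads in every library, and 0 to 2 and 0 to 3 with 1 library left out, the wt/wt count falling to 0 without wt/wt ES replicate 1 and the dcat/dcat count in 6 of the 12 fits, those without wt/wt RS replicate 2 or 3, dcat/dcat RS replicate 1 or 2, or dcat/dcat ES replicate 2 or 3. The pairing was not shown between stages in wt/wt (correlations of -0.20 to 0.54) or between genotypes in ES (0.047 to 0.64). With a block within each stage, the smallest q between genotypes in ES was 0.0736. Shares of all contigs called are not given for any of these fits.

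Total-count scaling turned the sign of 23 of the 108 values in wt/wt and 23 in dcat/dcat, of which only that of Eif5 T166123 had been called in each. Among the contigs named by rule these were (wt/wt, then dcat/dcat) Eif2b4 to -0.25 and -0.33, Eif2ak1 to -0.48 and -0.065, Eif3g to -0.60 and -0.48, Eif5 T166123 to -0.13 and -0.13, Eef1a1 to -0.39 and -0.36, and Eef2 to -0.54 and -0.60. Requiring 10 reads in every library turned Eif3g to -0.20 and -0.084 and Eef2 to -0.15 and -0.20. With 1 library left out, values crossed 0 for uncalled contigs only. The ranges in wt/wt were -0.30 to 0.025 for Eif2s1, -0.18 to 0.0096 for Eif3h, -0.38 to 0.00061 for Eif4g2 T162415, -1.65 to 0.25 for Eif5a T108610, -1.12 to 0.46 for Eef2kmt and -0.33 to 0.23 for Eif4h T201263. In dcat/dcat they were -0.010 to 0.86 for Eif2b4, -0.24 to 0.060 for Eif4ebp2, -1.85 to 0.36 for Eif5a T108610 and -0.023 to 0.18 for Eef2. Intervals on counts cover counting error only.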

Other observations

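The factor contigs together took a similar part of the reads at both stages, 1.11% ± 0.043 (SD, n = 3) in wt/wt RS, 1.12% ± 0.066 in wt/wt ES, 1.15% ± 0.031 in dcat/dcat RS and 1.14% ± 0.053 in dcat/dcat ES. Among reads outside the 10 most abundant contigs of each library, the part was 1.19% ± 0.030, 1.41% ± 0.056, 1.23% ± 0.031 and 1.42% ± 0.056 in the same order. The nearer 3' end of Eif4g2, T161051, took 25.2% ± 10.5 of its reads in wt/wt RS and 36.5% ± 2.20 in wt/wt ES, and the nearer ends of Eif4e2 took 61.7% ± 1.23 and 71.1% ± 6.14, both without overlap. In dcat/dcat these shares went from 26.9% ± 10.7 to 40.7% ± 14.5 for Eif4g2 and from 55.6% ± 8.07 to 65.9% ± 10.8 for Eif4e2, with overlap. Between libraries of equal number, the Eif4g2 share was higher in ES in 3 of 3 for each genotype, by 5.48 to 20.9 percentage points in wt/wt and 9.41 to 16.6 in dcat/dcat, and the Eif4e2 share in 3 of 3 and 2 of 3. The study took both stages from the same mice, but whether equal numbers mark the same mice is not stated.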
